A study of Homo sapiens with 3 samples.

Results

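In total 8 long noncoding RNAs (lncRNAs) were followed in single cells of OVCAR3, a human line established from a high-grade serous carcinoma of the ovary: MALAT1, NEAT1, KCNQ1OT1, UCA1, HOXA-AS2, IGFL2-AS1, AC095055.1 and AC100800.1. They are 8 of the 36601 genes counted, of which 16421 are annotated as lncRNA. The members were chosen by their differences between these same libraries, and the split of their levels by depth and mitochondrial share was set by that choice too, so all values are a description and no test was run on them.

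The DMSO culture received the vehicle for 48 h. The RAC1i culture received 50 µM NSC23766, an inhibitor that keeps the small GTPase RAC1 from being activated, and the Combo culture received 50 µM NSC23766 with 5 µM GSK126, which inhibits EZH2, the histone methylating enzyme of Polycomb repression. There was 1 library from 1 culture for each condition, so there was no replicate, and the effect of a treatment cannot be told apart from a difference between cultures or captures. The culture with EZH2i alone was not analysed here, so Combo over RAC1i gives the addition of GSK126 on top of NSC23766 and nothing gives GSK126 by itself.

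The kept cells (over 1000 genes, at most 20% mitochondrial UMIs, complexity over 0.8) numbered 7531 in DMSO, 10215 in RAC1i and 8239 in Combo and held 199063947 to 234969742 unique molecular identifiers (UMIs) per library. The median depth was 26750, 20989 and 24953 UMIs per cell, and 21.9% to 22.0% of cells in each library held fewer than 10000. Mitochondrial genes gave a median of 5.60% of a DMSO cell's UMIs, 1.66% in RAC1i and 1.58% in Combo. All 12 serous and epithelial markers reached 10 counts per 1e6 UMIs (CPM) in the higher of 2 libraries. Against DMSO 7 of them were at least 2-fold lower in RAC1i and 5 in Combo, and 0 were higher. Of all genes at that level 24.6% and 22.8% were lower. PAX8 was at 0.153 and 0.135 and WT1 at 0.326 and 0.246 of DMSO in RAC1i and Combo. None of 11 markers of fibroblasts, leukocytes, endothelium and erythroid cells reached 10 CPM. Their summed level was 7.83 to 9.04 CPM, with CD3E, HBB and PTPRC at 0 to 5 UMIs per library. Any pair of libraries shared 29 or 30 barcodes, 15 to 23 of them among kept cells.

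LncRNAs are transcribed and usually polyadenylated like mRNA but code for no protein, and many stay in the nucleus. MALAT1 accumulates in nuclear speckles, the bodies that store splicing factors, and NEAT1 is the scaffold on which paraspeckles assemble. KCNQ1OT1 runs antisense through KCNQ1 from the paternal allele and silences imprinted neighbours in cis, and UCA1 is an RNA known from bladder and other carcinomas. A cell that loses cytoplasm before capture keeps its nucleus, which is why nuclear RNA is commonly read beside the depth and the mitochondrial share of a cell.

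The members split into 2 that were nearly absent in DMSO and present in both treated libraries (AC095055.1 and AC100800.1), 3 that were at least 2-fold lower in both (NEAT1, KCNQ1OT1 and UCA1), and 3 within 2-fold of DMSO (MALAT1, HOXA-AS2 and IGFL2-AS1). All 8 reached the minimum of 10 CPM in the higher library of every pair. Of all genes that did, 13.1% were at least 2-fold higher and 24.6% lower in RAC1i than in DMSO, and of the lncRNAs among them 26.4% were higher and 29.6% lower. For Combo over DMSO the shares were 11.8% and 22.8% of all genes, and 23% and 30.2% of lncRNAs. None of the 8 differed 2-fold between Combo and RAC1i, where 0.0269% of 7443 genes were higher and 0.0134% lower, with 0% in each direction among 216 lncRNAs. UCA1 lay just past the limit in RAC1i at 0.485 of its DMSO level, and MALAT1 lay just inside it at 0.522. With levels weighted to the mitochondrial classes of DMSO, none of the 3 stayed at least 2-fold lower in RAC1i, with NEAT1 at 0.560, KCNQ1OT1 at 0.756 and UCA1 at 0.641 of DMSO. With depth and mitochondrial classes weighted together, KCNQ1OT1 stayed past the limit at 0.284, while NEAT1 came to 0.651 and UCA1 to 0.773. In Combo the weighting by mitochondrial class left NEAT1 at 0.485 and UCA1 at 0.452 but put KCNQ1OT1 at 1.16, and with both KCNQ1OT1 was at 0.327, NEAT1 at 0.527 and UCA1 at 0.608. KCNQ1OT1 was also inside the limit as a mean over cells of CPM, where each cell counts alike, at 0.592 in RAC1i and 0.779 in Combo, and in Combo after thinning to 2500 UMIs (0.630, with RAC1i at 0.472). UCA1 in RAC1i was also inside the limit with TMM scaling (0.513), with DESeq2 size factors (0.526) and in cells over 2% mitochondrial (0.545), a limit chosen after seeing the data. The median gene was at a log2 ratio of -0.20 in RAC1i and -0.18 in Combo over DMSO.

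**Figure D1:**
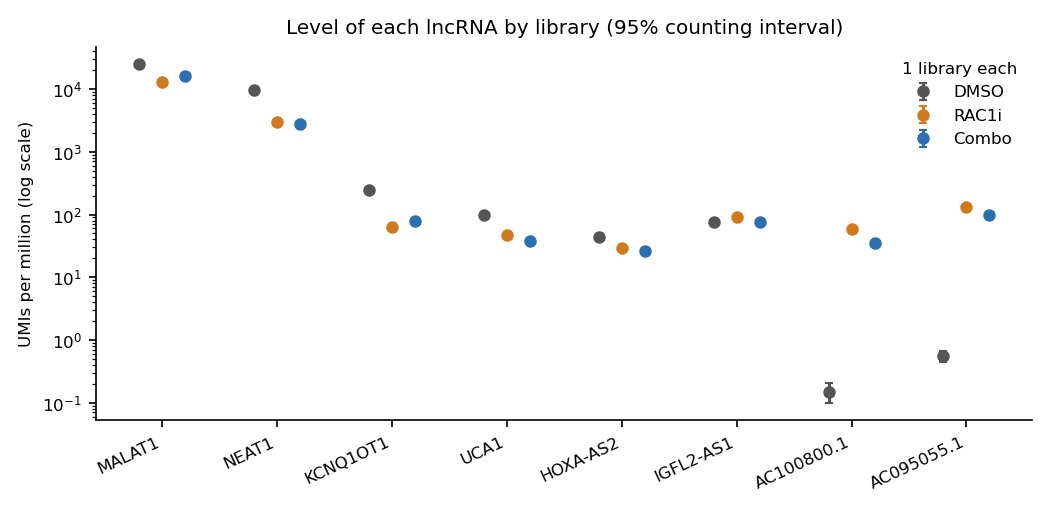
CPM of each lncRNA (UMIs per 1e6 UMIs, log axis) in the DMSO, RAC1i and Combo libraries, 1 point per library with its exact 95% Poisson interval, which covers counting error only. AC100800.1 and AC095055.1 rise from below 1 CPM in DMSO to between 35.8 and 133 CPM, while NEAT1, KCNQ1OT1 and UCA1 sit lower in both treated libraries.

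Long noncoding RNAs as a whole took the same part of each library, 5.00% of UMIs in DMSO, 5.02% in RAC1i and 5.07% in Combo. MALAT1 made up 50.1% of these lncRNA UMIs in DMSO, 26.0% in RAC1i and 31.9% in Combo. All 8 members together went from 3.52% of all UMIs to 1.65% and 1.93%. Other lncRNAs filled the difference. Among 30 known lncRNAs listed beside the members, 15 reached 10 CPM and 5 were at least 2-fold higher in RAC1i. The 5 were ZFAS1 at 17.6-fold and GAS5 at 10.6-fold, both hosts of small nucleolar RNAs, with MIR22HG at 9.90-fold, EPB41L4A-AS1 at 9.09-fold and CYTOR at 2.14-fold. HOXA10-AS was the 1 lower, at 0.264 of DMSO. Of all lncRNAs that reached 10 CPM, 26.4% were higher and 29.6% lower in RAC1i. In Combo 4 of the 15 were higher, with CYTOR at 1.73-fold, and HOXA10-AS was the 1 lower, at 0.255. There the shares were 23% and 30.2%. The counts of higher lncRNAs in the list thus lay near the share of all lncRNAs.

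MALAT1 (ENSG00000251562) lies at chr11:65497640-65508073 on the plus strand of GRCh38, with NEAT1 (ENSG00000245532) just below it at chr11:65422774-65445540 on the same strand. KCNQ1OT1 (ENSG00000269821) lies at chr11:2597308-2700003 on the minus strand, inside KCNQ1. The kit starts from runs of A with an oligo(dT) primer, so a run within an RNA is a possible priming place. The longest is shown for MALAT1, KCNQ1OT1 and UCA1 with 25 bases on either side, 5′ to 3′ on the transcribed strand. Capitals mark the run.
MALAT1: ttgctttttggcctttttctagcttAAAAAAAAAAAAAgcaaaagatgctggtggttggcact
KCNQ1OT1: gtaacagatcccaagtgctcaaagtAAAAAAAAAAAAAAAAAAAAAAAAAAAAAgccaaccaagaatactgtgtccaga
UCA1: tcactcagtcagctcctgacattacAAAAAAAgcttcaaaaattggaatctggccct
The runs are 13, 29 and 7 bases long and lie at chr11:65506073-65506135, chr11:2610692-2610770 and chr19:15830814-15830870, flanks included. The exons of KCNQ1OT1 hold 18 runs of at least 10 A, those of NEAT1 5, those of MALAT1 1 and those of UCA1 0, while 40.3% of 8807 genes with at least 10 CPM hold such a run. No value here shows how many UMIs began at them.

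MALAT1 was lower in both treated libraries as a whole. Its level was 25028 CPM in DMSO (95% Poisson interval 25006 to 25050), 13061 in RAC1i (13047 to 13076) and 16183 in Combo (16166 to 16200). DMSO was the highest and RAC1i the lowest, and the intervals of the 3 libraries did not overlap. This put RAC1i at 0.522 (0.521 to 0.523) and Combo at 0.647 (0.646 to 0.647) of DMSO, and Combo at 1.24 times RAC1i (1.24 to 1.24), the third highest ratio of 216 lncRNAs in that pair. RAC1i was past 2-fold lower with every barcode (0.493) and with totals free of mitochondrial genes (0.499), and at 0.888 of DMSO when weighted to its mitochondrial classes. Nearly every cell held it: after each cell was thinned to 5000 UMIs, a UMI was seen in 99.0% of cells in DMSO, 99.2% in RAC1i and 99.8% in Combo, and the median cell had 99, 43 and 54.

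NEAT1 fell further than its neighbour. It stood at 9741 CPM in DMSO (9727 to 9755), 3004 in RAC1i (2997 to 3011) and 2773 in Combo (2766 to 2780). RAC1i was at 0.308 (0.308 to 0.309) and Combo at 0.285 (0.284 to 0.286) of DMSO, with the 2 treated libraries close together at a ratio of 0.923 (0.920 to 0.926). UMIs of NEAT1 per UMI of MALAT1 went from 0.389 in DMSO to 0.230 in RAC1i and 0.171 in Combo. The share of thinned cells with a NEAT1 UMI moved the other way, from 90.0% (89.3 to 90.7) in DMSO to 97.3% (97.0 to 97.7) and 96.5% (96.1 to 96.9). The median cell held 38 UMIs in DMSO, 11 in RAC1i and 9 in Combo, and the cell at percentile 90 held 95, 31 and 28. DMSO cells thus ran from none at all to the highest counts of NEAT1.

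FRMD8, the protein-coding gene 9249 bases below NEAT1, did not share its drop. It was at 0.948 (0.899 to 0.999) of DMSO in RAC1i and at 0.990 (0.938 to 1.04) in Combo. Of 13 paraspeckle proteins 3 were at least 2-fold higher and 0 lower in RAC1i: CPSF7 at 3.03-fold, PSPC1 at 2.23-fold and TARDBP at 2.10-fold, where 13.1% of all genes were higher and 24.6% lower. The core paraspeckle proteins SFPQ and NONO were at 0.951 and 0.630. Of 10 nuclear speckle proteins 5 were higher and 0 lower, SRSF2 at 3.03-fold, SON at 2.52-fold, RBM25 at 2.27-fold, RNPS1 at 2.18-fold and SRRM1 at 2.03-fold. In Combo the counts were 2 of 13, without TARDBP at 1.84-fold, and 5 of 10, beside 11.8% of all genes higher, so that the paraspeckle count lay near that share. The median log2 ratio of the list was -0.10 for paraspeckles and 0.99 for speckles in RAC1i, against -0.20 over all genes.

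KCNQ1OT1 had the lowest ratio of the 8 in RAC1i. It went from 245 CPM in DMSO (243 to 247) to 64.1 in RAC1i (63.0 to 65.1) and 79.3 in Combo (78.1 to 80.5), that is to 0.261 (0.257 to 0.266) and 0.323 (0.318 to 0.329) of DMSO. A UMI of it was found in 54.2% of thinned cells from DMSO (53.0 to 55.4), 22.2% from RAC1i (21.4 to 23.1) and 26.4% from Combo (25.4 to 27.4). Combo lay above RAC1i at 1.24-fold (1.21 to 1.26). CDKN1C, the imprinted cell cycle inhibitor 183210 bases away that KCNQ1OT1 is known to silence on the paternal allele, was lower beside it at 0.266 (0.253 to 0.279) and 0.331 (0.316 to 0.346). KCNQ1 itself had 27 to 34 UMIs per library. Stretches of KCNQ1OT1 match transcripts of 21 other genes, on either strand, at 95% identity or more over at least 200 bases, and 18 of these are counted here. MALAT1 has such matches with 2 genes, 1 counted, over up to 8121 bases, UCA1 with 2, 1 counted, over up to 328 bases, and HOXA-AS2 with 1, counted, over 254 bases. Matches with genes that overlap the same locus on the other strand were not set apart. How many UMIs of these 4 are uncertain is thus unknown, and the other 4 members had no such match.

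With all mitochondrial shares together, the level of these 3 RNAs turned with depth in opposite directions in DMSO and in the treated libraries. In DMSO cells below 10000 UMIs, MALAT1 was at 9683 CPM against 25769 in cells with at least 20000, a ratio of 0.376 (0.373 to 0.378). NEAT1 gave 0.295 (0.291 to 0.298) and KCNQ1OT1 0.312 (0.289 to 0.336). All 3 were lower in the shallow DMSO cells, where 0.0614% of 8145 genes were at least 2-fold higher and 15.6% lower. In RAC1i the same ratios were 1.32 (1.32 to 1.33), 1.14 (1.13 to 1.16) and 5.13 (4.92 to 5.34), and in Combo 1.72 (1.71 to 1.73), 1.45 (1.44 to 1.47) and 6.05 (5.83 to 6.29). All 3 were thus higher in the shallow treated cells when mitochondrial shares were not set apart. KCNQ1OT1 had the 15th highest ratio of 7240 genes in RAC1i and the 20th of 7296 in Combo. In RAC1i 3.87% of genes were at least 2-fold higher in shallow cells and 3.33% lower, and in Combo 5.54% and 9.14%. With cells over 10% mitochondrial left out, NEAT1 in RAC1i moved to 0.988, and in DMSO NEAT1 went to 0.153 and KCNQ1OT1 to 0.161. With limits of 5000 and 40000 UMIs, KCNQ1OT1 came to 13.6 in RAC1i and 12.7 in Combo, and MALAT1 to 2.07 and 2.68. Among treated cells at most 2% and at 2 to 10% mitochondrial, NEAT1 was lower below 10000 UMIs than above. In RAC1i it was at 1647 against 2471 CPM and 3630 against 4338, in Combo at 1787 against 2398 and 3538 against 3854. MALAT1 was at 8760 against 11011 and 16989 against 17721 in RAC1i. In Combo it was at 15144 against 14455 and 23399 against 19930. KCNQ1OT1 was higher in the shallow cells in each case.

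**Figure D2:**
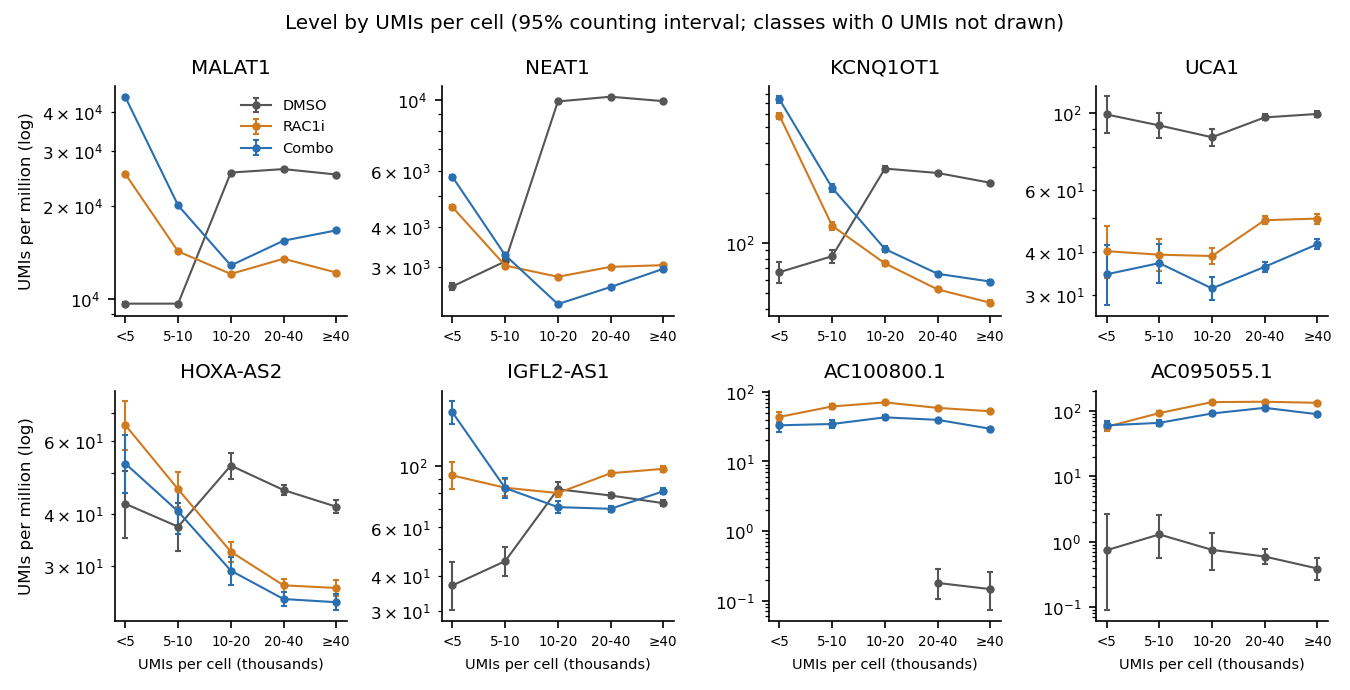
CPM (log axis) of each lncRNA in 5 classes of UMIs per cell, with 1 line per library and exact 95% Poisson intervals. For MALAT1, NEAT1 and KCNQ1OT1 the DMSO line climbs between 5000 to 10000 and 10000 to 20000 UMIs while the treated lines fall, and the DMSO line of UCA1 lies above both treated lines in every class.

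The difference between libraries changed with the depth of the cells read. Below 5000 UMIs MALAT1 was at 9682 CPM in DMSO, 25272 in RAC1i and 44628 in Combo, and KCNQ1OT1 at 66.5, 589 and 739. Here the treated cells were the higher ones, with all mitochondrial shares together. From 20000 to 40000 UMIs MALAT1 was at 26212, 13501 and 15431 CPM, NEAT1 at 10214, 3004 and 2598, and KCNQ1OT1 at 265, 52.3 and 65.0. In each class from 10000 UMIs up, the 3 RNAs were lower in both treated libraries.

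The mitochondrial share of a cell went with the same 3 RNAs, and with HOXA-AS2 and IGFL2-AS1 as given for each of them. In DMSO MALAT1 climbed from 2667 CPM in the 1170 cells with at most 1% mitochondrial UMIs to 35276 in the 880 cells with 10 to 20%, in RAC1i from 8645 to 42323 and in Combo from 11802 to 63486. At most 1%, NEAT1 stood at 402 CPM in DMSO, 1958 in RAC1i and 1856 in Combo, and KCNQ1OT1 at 13.0, 47.3 and 64.1. In these cells all 3 were higher in the treated libraries, by 3.24-fold for MALAT1, 4.87-fold for NEAT1 and 3.65-fold for KCNQ1OT1 in RAC1i. In each class above 1% NEAT1 was lower in the treated cells, between 0.531 and 0.715 of DMSO in RAC1i and between 0.437 and 0.699 in Combo. MALAT1 had no such steady side: RAC1i was above DMSO in 4 of the 6 classes and below it in 2, and Combo likewise. KCNQ1OT1 was lower in 4 of 6 classes in RAC1i and 3 of 6 in Combo. Weighted to the mitochondrial classes of DMSO, MALAT1 in Combo came to 1.11 and KCNQ1OT1 in Combo to 1.16 of DMSO, so their direction reversed.

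**Figure D3:**
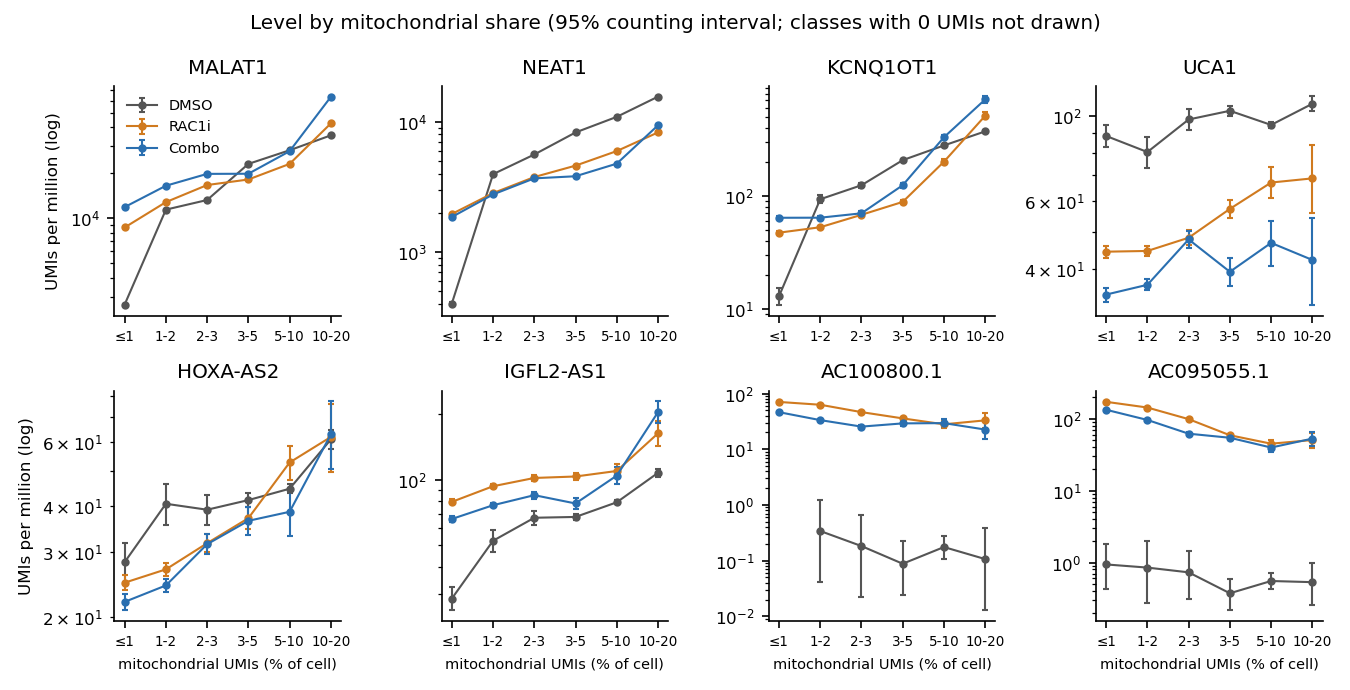
CPM (log axis) of each lncRNA in 6 classes of the mitochondrial share of a cell, with 1 line per library and exact 95% Poisson intervals. The DMSO lines of MALAT1, NEAT1 and KCNQ1OT1 start below the treated lines at 1% or less, and AC095055.1 declines with mitochondrial share in the treated cells.

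Shallow cells were of a different make in DMSO. Of DMSO cells below 10000 UMIs, 71.4% had at most 2% mitochondrial UMIs, against 7.19% of those with at least 10000. In the treated libraries it was the reverse, with 24.1% of shallow and 69.4% of deeper RAC1i cells at or below 2%, and 19.1% and 74.5% in Combo. Shallow DMSO cells at or below 2% had a median of 1800 genes and held MALAT1 at 2309, NEAT1 at 185 and KCNQ1OT1 at 7.23 CPM. Shallow cells at 2 to 10% were 21.0% of the shallow cells in DMSO, 61.7% in RAC1i and 60.9% in Combo. In them DMSO was not the lower library for NEAT1, at 6693 CPM against 3630 in RAC1i and 3538 in Combo. MALAT1 was at 23006.5, 16989 and 23399 CPM there, and KCNQ1OT1 at 167, 275 and 377. Shallow DMSO cells above 10% held 41279, 17435 and 457 CPM of MALAT1, NEAT1 and KCNQ1OT1, and those of Combo 66583, 9855 and 755. The part of the mitochondrial share in the differences between libraries was not tested beyond these classes.

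Cell by cell, MALAT1 and NEAT1 moved together. Across cells thinned to 5000 UMIs Pearson's r between them was 0.860 in DMSO (6725 cells), 0.708 in RAC1i (9200) and 0.754 in Combo (7354). Among cells with 2 to 10% mitochondrial UMIs it was 0.664, 0.691 and 0.757. NEAT1 was the gene most like MALAT1 among 3562 genes with at least 50 CPM, with a mean r of 0.774 over the libraries and a median of 0.02 over all genes. Next came transcripts of the mitochondrial genome, MT-CO3 (0.449) and MT-CO1 (0.429) for MALAT1 and MT-CO2 (0.500) and MT-CO3 (0.486) for NEAT1. For KCNQ1OT1 the highest mean r was with MALAT1 (0.259), at 0.494 in DMSO, 0.140 in RAC1i and 0.144 in Combo. MT-ND2 and MT-ND3 followed at 0.238 and 0.227, and MT-ND2 was above MALAT1 in Combo (0.169) and in the mean after thinning to 2500 UMIs (0.286 against 0.234). Among cells with 2 to 10% mitochondrial UMIs r between KCNQ1OT1 and MALAT1 was lower, at 0.370, 0.0451 and 0.108. These cells share 1 library each and a fixed total of UMIs, so the values describe these cells.

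UCA1 (ENSG00000214049), at chr19:15828206-15836328 on the plus strand, was lower in both treated libraries at every depth and mitochondrial share. Its level was 97.1 CPM in DMSO (95.7 to 98.5), 47.1 in RAC1i (46.3 to 48.0) and 37.9 in Combo (37.1 to 38.8). DMSO was apart from the treated libraries, with RAC1i at 0.485 (0.474 to 0.497), Combo at 0.391 (0.381 to 0.401), and Combo below RAC1i at 0.805 (0.782 to 0.829). In the 5 depth classes RAC1i lay between 0.404 and 0.506 of DMSO and Combo between 0.347 and 0.422. In the 6 mitochondrial classes the ranges were 0.494 to 0.709 and 0.383 to 0.495. The shallow over deep ratio was 0.960 (0.895 to 1.03) in DMSO, 0.797 (0.727 to 0.873) in RAC1i and 0.933 (0.836 to 1.04) in Combo, a smaller range than for the 3 RNAs above.

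UCA1 was patchy across cells. A UMI was found in 28.6% of thinned DMSO cells (27.6 to 29.7), 17.4% in RAC1i (16.6 to 18.2) and 14.6% in Combo (13.8 to 15.4), and the 10% of DMSO cells with the most held 60.5% of its UMIs. In DMSO it was lower in cells with at least 5 UMIs of 12 proliferation genes, at 72.4 CPM, than in cells with none, at 133 CPM. In RAC1i the same levels were 40.7 and 46.2 CPM. CD70, a ligand of the TNF family, was detected in 26.6% of DMSO cells with UCA1 (24.7 to 28.7) and 13.6% of those without (12.7 to 14.6). In RAC1i this was 9.57% against 5.30%, and in Combo 8.28% against 5.05%. The median depth before thinning was 29662 and 28429 UMIs in the DMSO cells with and without UCA1. CXCL1, a chemokine, was at 13.9% against 8.71% in DMSO and 62.4% against 56.7% in RAC1i, while IL6 was at 39.6% against 39.0% in RAC1i. CD70 went down between libraries as UCA1 did, to 0.274 in RAC1i, and CXCL1 went up to 9.85-fold. The nearest protein-coding gene, OR10H1, had 142 UMIs in DMSO, 731 in RAC1i and 629 in Combo.

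HOXA-AS2 (ENSG00000253552), at chr7:27107777-27134302 on the plus strand, runs against the HOXA genes that set position along the body axis. It was at 44.3 CPM in DMSO (43.3 to 45.2), 29.0 in RAC1i (28.3 to 29.7) and 26.1 in Combo (25.4 to 26.8). Treated libraries stood at 0.655 (0.634 to 0.676) and 0.589 (0.569 to 0.609) of DMSO. The drop was within 2-fold and depended on the cells: below 5000 UMIs RAC1i was above DMSO, at 65.4 against 42.2 CPM, and above 20000 it was below. From cells at 1% mitochondrial UMIs or less to those at 10 to 20%, its level went from 28.2 to 60.8 CPM (DMSO), from 24.8 to 61.7 (RAC1i) and from 22.0 to 62.7 (Combo). Weighted to the mitochondrial classes of DMSO, RAC1i came to 1.05 of DMSO. Its shallow over deep ratio was 0.883 (0.791 to 0.983) in DMSO and 1.91 (1.76 to 2.07) and 1.79 (1.62 to 1.98) in the treated libraries.

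The HOXA genes around it did not move as a block. HOXA3, which overlaps it on the other strand, was at 0.629 (0.613 to 0.645) in RAC1i and 0.519 (0.505 to 0.534) in Combo, close to HOXA-AS2. HOXA4, also overlapping, was at 0.839 and 0.840, and HOXA5 at 0.804 and 0.650. HOXA2, 5091 bases below, was higher at 4.11-fold (3.93 to 4.30) and 2.90-fold (2.76 to 3.04). Cell Ranger was run with default settings, which count reads of a 3′ kit on the strand of the gene.

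IGFL2-AS1 (ENSG00000268621), at chr19:46189029-46203160 on the minus strand between IGFL2 and IGFL1, was the member closest to DMSO in the whole libraries. Its level was 75.2 CPM in DMSO (74.0 to 76.4), 92.3 in RAC1i (91.1 to 93.6) and 76.1 in Combo (74.9 to 77.2). RAC1i was the highest, at 1.23 times DMSO (1.20 to 1.25), and Combo lay at 1.01 (0.990 to 1.03), a counting interval that holds 1. Within mitochondrial classes it was higher in the treated cells in 6 of 6, by 1.39 to 2.78-fold in RAC1i and 1.15 to 2.32-fold in Combo. Depth classes had no such steady side in Combo, where 3 of 5 were higher and 2 lower, while in RAC1i 4 were higher and 0 lower. Combo was at 4.21 times DMSO (3.38 to 5.27) below 5000 UMIs, at 0.862 (0.799 to 0.929) from 10000 to 20000, at 0.896 (0.867 to 0.925) from 20000 to 40000 and at 1.10 (1.06 to 1.14) from 40000 up. RAC1i was at 2.49 (1.98 to 3.15) below 5000, at 0.968 (0.906 to 1.04) from 10000 to 20000 and at 1.20 and 1.33 above. From 5000 to 10000 UMIs RAC1i was at 1.84 (1.60 to 2.11) and Combo at 1.83 (1.59 to 2.12). Its level climbed with mitochondrial share, from 28.5 CPM at 1% or less to 108 at 10 to 20% in DMSO, from 79.2 to 163 in RAC1i and from 66.1 to 204 in Combo. A UMI was found in 21.6%, 27.3% and 22.4% of thinned cells. In DMSO its level was 49.7 CPM in cells with at least 5 proliferation UMIs and 113 in cells with none, in RAC1i 75.1 and 106. Its exons hold 3 runs of at least 10 A. Its closest companions across cells were NEAT1 (mean r 0.222) and UCA1 (0.182), weak values in counts this sparse.

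**Figure D4:**
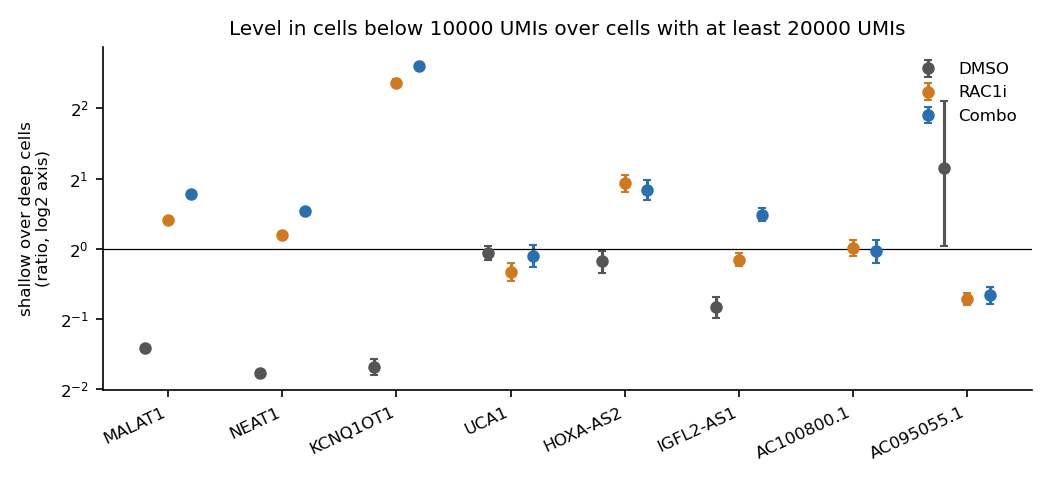
Level in cells below 10000 UMIs divided by the level in cells with at least 20000 UMIs (log2 axis), for each lncRNA and library, with exact conditional 95% intervals that cover counting error. MALAT1, NEAT1 and KCNQ1OT1 lie below 1 in DMSO and above 1 in both treated libraries. AC100800.1 is not drawn for DMSO, where shallow cells held 0 UMIs.

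AC095055.1 (ENSG00000270681) is a transcript of 1 exon and 1113 bases at chr4:151139991-151141103 on the plus strand, inside SH3D19 on the opposite strand. Its function is not described here. The last 60 bases of the gene, chr4:151141044-151141103, are shown because they are the end that a 3′ kit reads, with capitals on AATAAA, the signal for cleavage and polyadenylation, searched on the transcribed strand.
AC095055.1: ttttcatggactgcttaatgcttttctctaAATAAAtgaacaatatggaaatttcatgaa
The last 60 bases of KCNQ1OT1, chr11:2597308-2597367, hold it as well, and the outermost annotated ends of the other members searched do not.
KCNQ1OT1: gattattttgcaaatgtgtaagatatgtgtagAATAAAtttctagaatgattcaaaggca
The signal lies 24 and 22 bases from the annotated end. Only the outermost end of each gene was searched. MALAT1 has 66 annotated transcripts, UCA1 45, KCNQ1OT1 14 and NEAT1 9, and ends further inside these genes were not searched. It is found in the last 60 bases of 60.7% of 8807 genes and 47.9% of 315 lncRNAs with at least 10 CPM. AC095055.1 has no run of 10 A, its longest being 5.

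In DMSO AC095055.1 had 109 UMIs in 95 of 7531 cells, 85 of them with a single UMI, which is 0.548 CPM (0.450 to 0.661). RAC1i held 31323 UMIs, 133 CPM (132 to 135), and Combo 20930 UMIs, 98.4 CPM (97.0 to 99.7). RAC1i was 243-fold (202 to 297) and Combo 180-fold (149 to 219) above DMSO, and Combo was at 0.738 (0.725 to 0.751) of RAC1i. With both weightings the folds were 79.4 and 74.2, and after thinning to 2500 UMIs 380 and 295. That thinning left only 6 DMSO cells with a UMI, each with 1. A UMI was found in 0.268% of thinned cells of DMSO (0.159 to 0.423), 42.4% in RAC1i (41.4 to 43.5) and 33.5% in Combo (32.4 to 34.6). The gain was thus spread over many cells, and the 10% with the most held 42.1% of the UMIs in RAC1i. None of its 109 DMSO UMIs lay in the 42 DMSO cells whose barcode also occurs in another library. With 42 of 7531 cells, this cannot tell where those UMIs came from.

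Unlike KCNQ1OT1, AC095055.1 was lower in shallow treated cells, at a shallow over deep ratio of 0.610 (0.573 to 0.649) in RAC1i and 0.632 (0.582 to 0.685) in Combo. In DMSO this ratio was 2.22 (1.03 to 4.29), from only 10 UMIs in shallow cells. AC095055.1 declined with mitochondrial share, from 172 CPM at 1% or less to 50.5 CPM at 10 to 20% in RAC1i and from 133 to 52.9 in Combo. Its ratio to DMSO ran from 51.1 (25.7 to 119) for Combo at 5000 to 10000 UMIs, where DMSO had 8 UMIs, to 345 (240 to 515) for RAC1i at 40000 or more. In RAC1i it was at 147 CPM (135 to 160) in cells with no proliferation transcripts and lower, at 120 CPM (114 to 126), with at least 5. In Combo the levels were 93.8 (82.4 to 106) and 87.7 (82.4 to 93.4), with intervals that overlap. Across cells it was most like SNHG1 (r 0.304 in RAC1i, 0.283 in Combo), SNHG17 (0.288 and 0.294), both small nucleolar RNA host genes, and EIF4A2 (0.266 and 0.259), a translation factor. SH3D19, the gene that holds it, went the other way, at 0.411 (0.386 to 0.438) of DMSO in RAC1i and 0.411 (0.385 to 0.439) in Combo. RPS3A, a ribosomal protein gene below it, was at 0.845 and 0.844.

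AC100800.1 (ENSG00000187229) is a spliced transcript of 2054 exonic bases at chr8:18720905-18734405 on the plus strand, inside PSD3 on the opposite strand, and its function is likewise not described here. It had 29 UMIs in DMSO, each in a different cell, or 0.146 CPM (0.0976 to 0.209). RAC1i held 13820 UMIs, 58.8 CPM (57.8 to 59.8), and Combo 7611 UMIs, 35.8 CPM (35.0 to 36.6). RAC1i was 404-fold (281 to 603) and Combo 246-fold (171 to 367) above DMSO. Combo was at 0.608 (0.591 to 0.625) of RAC1i, the 12th lowest of 7443 genes in that pair and the third lowest of 216 lncRNAs. This ratio was 0.856 when weighted to the mitochondrial classes of DMSO and turned to 1.03 with depth classes added. Over the alternatives the fold above DMSO ran from 146 to 682 in RAC1i and from 151 to 436 in Combo, lowest with both weightings. The highest came from thinning to 5000 UMIs, which left only 3 DMSO cells with a UMI, each with 1. In RAC1i over DMSO AC100800.1 and AC095055.1 ranked 5 and 6 among the ratios of 8778 genes.

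AC100800.1 was held by fewer cells than AC095055.1. A UMI was found in 0.0446% of thinned cells of DMSO (0.00920 to 0.130), 21.1% in RAC1i (20.3 to 22.0) and 14.4% in Combo (13.6 to 15.2), and the 10% of RAC1i cells with the most held 63.5% of its UMIs. Its shallow over deep ratio was 1.01 (0.934 to 1.09) in RAC1i and 0.975 (0.870 to 1.09) in Combo, both with intervals that hold 1. It fell with mitochondrial share as AC095055.1 did, from 70.6 to 33.0 CPM in RAC1i and from 46.2 to 22.6 in Combo. The 2 RNAs were weakly related across cells, at r 0.124 in RAC1i and 0.117 in Combo. TRA2B, a splicing regulator (0.207 in RAC1i and 0.170 in Combo), SNHG17 (0.207 and 0.183) and MYL12A, a myosin light chain (0.211 and 0.149), had the highest mean r, all of them weak. PSD3, around it, had 1798 UMIs in DMSO, 808 in RAC1i and 720 in Combo, 0.381 (0.350 to 0.414) and 0.375 (0.343 to 0.409) of DMSO, below 10 CPM in each. SH2D4A, the next gene above, was at 1.71 and 1.91-fold.

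**Figure D5:**
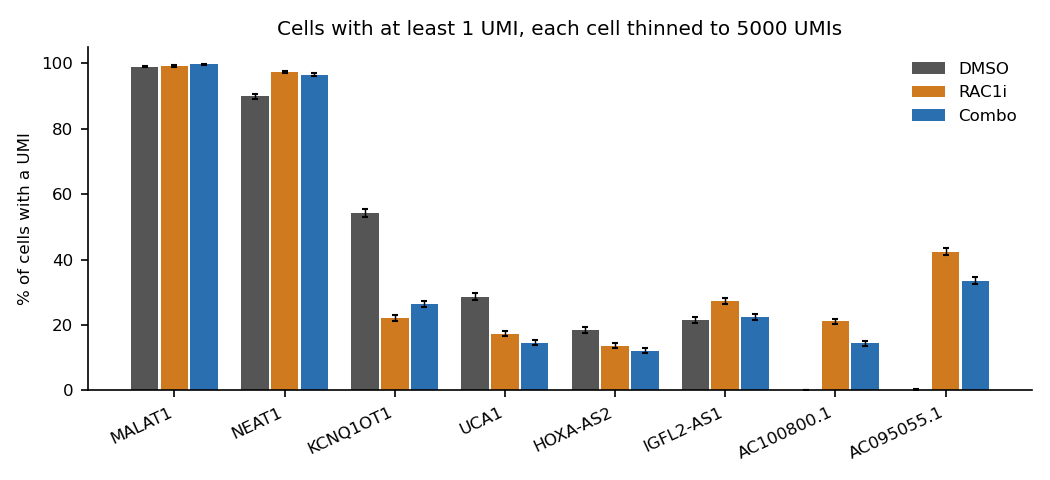
Percent of cells with at least 1 UMI of each lncRNA after every cell was thinned to 5000 UMIs and shallower cells left out, with Clopper-Pearson 95% intervals, for 6725 DMSO, 9200 RAC1i and 7354 Combo cells. AC095055.1 goes from 0.268% to 42.4% and 33.5%, and the NEAT1 bars are lowest in DMSO although its mean level there is the highest.

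Without thinning, the shares of cells with a UMI were 1.26% in DMSO, 68.8% in RAC1i and 62.9% in Combo for AC095055.1, and 0.385%, 45.4% and 35.8% for AC100800.1. KCNQ1OT1 was in 73.9%, 53.5% and 61.3% of unthinned cells and UCA1 in 57.0%, 43.7% and 39.8%. The order of the libraries was the same as after thinning for these 4 RNAs. No cell type that should lack these RNAs was in the culture, so the share due to free RNA in the droplets is unknown, and the DMSO values of the 2 RNAs nearly absent there are the lowest level seen.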

How the data were processed

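Single-cell counts of OVCAR3 cultures were used for 3 libraries (DMSO, RAC1i, Combo), 1 per condition, each at 48 h. The authors deposited counts, whole numbers of UMIs per gene and barcode, not normalized, made with the Chromium 3′ v3.1 kit and, per the submitters' processing notes, Cell Ranger 4.0.0 on GRCh38. Doublets were neither called nor removed. Following the study's methods, a cell needed over 1000 genes, a mitochondrial share of 20% or less and log10 genes over log10 UMIs above 0.8.

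UMIs were summed over kept cells and given as CPM of all UMIs. Exact Poisson (CPM), exact conditional (ratio) and Clopper-Pearson (share) 95% intervals cover counting error only. With 1 library per condition no test across samples and no p-value could be had. Genes were counted as past the limit at 2-fold and at least 10 CPM in the higher library. For shares and correlations (log of 1 plus UMIs) cells were thinned at random to 5000 UMIs. The genes named are the members, the protein-coding genes that overlap or flank them, up to 3 genes with the highest mean correlation of at least 0.1, and, of each list, the largest rise and fall. UCA1 was also read beside a short list of genes. The other genes of a list that were past the limit, and SFPQ, WT1, CXCL1 and IL6, were named after their values were seen. Of the genes and sequences this rule covers, 1 gene and 1 sequence are not reported here. The members and lists were chosen with earlier results of these data known.

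Loci, exons and sequences were taken from GENCODE 44 and GRCh38, which held 36366 of 36601 identifiers (99.36%). These gene models can differ from those used in counting. Python 3.11.15 with numpy 2.4.6 and scipy 1.17.1 was used, blastn 2.17.0+ for copies, and for scaling edgeR 4.0.16 (TMM) and DESeq2 1.42.0 (size factors) in R 4.3.3. The calculations were tested on simulated data. The alternatives tried were other limits on cells, scalings, thinning depths, and levels weighted to the depth or mitochondrial classes of DMSO. Cells over 2% mitochondrial UMIs were added after seeing the data.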

Additional observations from a re-analysis of the deposited data

Results flagged for a closer look

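Of the RNAs, 5 changed with depth in opposite directions in different libraries, which was not tested because each condition was 1 library. This is with all mitochondrial shares together. Within the classes at most 2% and 2 to 10%, NEAT1 in both treated libraries and MALAT1 in RAC1i were lower in shallow cells. AC095055.1 was not counted among them for its few DMSO UMIs. Its ratio in DMSO was 2.22 (1.03 to 4.29), from 10 UMIs in shallow cells, while it was lower in shallow treated cells. The level in cells below 10000 UMIs over that in cells with at least 20000 for MALAT1 came to 0.376 (DMSO), 1.32 (RAC1i) and 1.72 (Combo). It was 0.295, 1.14 and 1.45 for NEAT1, and 0.312, 5.13 and 6.05 for KCNQ1OT1. HOXA-AS2 gave 0.883, 1.91 and 1.79. For IGFL2-AS1 the 3 ratios were 0.563, 0.899 and 1.40, so RAC1i went with DMSO here.

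The barcodes left out for over 20% mitochondrial UMIs (1592 in DMSO, 534 in RAC1i, 508 in Combo) also held the RNAs, and some lay above the DMSO level in them by CPM. The values shift with the total used, since mitochondrial UMIs are a larger part of it in DMSO. MALAT1 was at 63767 CPM in Combo against 50492 in DMSO, but per 1e6 UMIs without mitochondrial genes the order turned, to 101459 against 112957. KCNQ1OT1 was at 737 CPM in RAC1i and 808 in Combo against 487 in DMSO, and at 1178 and 1286 against 1090 without mitochondrial genes. IGFL2-AS1 was at 126 and 128 CPM against 78.3, and at 201 and 203 against 175 without them. Of the KCNQ1OT1 and IGFL2-AS1 levels without mitochondrial genes, the 95% counting interval was apart from that of DMSO only for KCNQ1OT1 in Combo. AC095055.1 stood at 31.7 and 34.1 CPM against 0.161, from 1 UMI in DMSO. AC100800.1 stood at 29.4 and 8.52 CPM against 0 UMIs in DMSO.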

How the results depend on the processing

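For the levels between libraries, 15 alternatives were computed for each RNA and pair, and 14 for AC100800.1 over DMSO, since thinning to 2500 UMIs left it at 0 UMIs there. UCA1 and NEAT1 stayed below DMSO, and AC095055.1 and AC100800.1 above it, in all of these. DESeq2 size factors moved the median log2 ratio of all genes from -0.20 to -0.07 for RAC1i and from -0.18 to -0.04 for Combo over DMSO. UCA1 in RAC1i ranged from 0.460 to 0.773 of DMSO and NEAT1 from 0.295 to 0.651. With levels weighted to the mitochondrial classes of DMSO, 3 directions reversed on the log2 scale: HOXA-AS2 in RAC1i over DMSO (0.077), MALAT1 in Combo over DMSO (0.15) and KCNQ1OT1 in Combo over DMSO (0.22). With classes of depth and mitochondrial share together, which used 24 of 30 classes and 78.9% of DMSO cells, MALAT1 in Combo over DMSO came to 0.0012 and AC100800.1 in Combo over RAC1i to 0.048. Shallow over deep, HOXA-AS2 in DMSO turned to 0.023 with limits of 5000 and 40000 UMIs, and NEAT1 in RAC1i to -0.018 with a mitochondrial limit of 10%.

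The members at least 2-fold lower in RAC1i than in DMSO (3) became 0 with mitochondrial weighting and 1 (KCNQ1OT1) with both, and those in Combo (3) became 1 with both. KCNQ1OT1 stayed past 2-fold in 13 of 15 alternatives in RAC1i and 12 of 15 in Combo, and the mean over cells of CPM (0.592 and 0.779) also took it inside the limit. At 1.5-fold they were 5 in each, and 1 member (AC100800.1) was then lower in Combo than in RAC1i. Of all genes, 1151 were higher and 2159 lower in RAC1i than in DMSO. The lower became 1381 with mitochondrial weighting, and with both weightings the counts were 629 and 1004. With no minimum CPM they were 5931 and 6846, and at 1.5-fold 1992 were higher. For Combo over DMSO (1030 and 1994) the lower became 1243 with both weightings, with no minimum they were 5525 and 6718, and at 1.5-fold 1862 and 3094. For Combo over RAC1i (2 higher, 1 lower) the higher were 4 with every barcode, 1 without the 8% of cells with the most UMIs, 4 with TMM, 5 with the mean over cells and 5 thinned to 5000 UMIs. The lower were 2 and 3 thinned to 5000 and 2500. With mitochondrial weighting there were 14 and 9, with both 24 and 30, in cells over 2% mitochondrial 5 and 0, with no minimum 1261 and 1294, and at 1.5-fold 13 and 36. The cause was not tested. No paired analysis was possible because each condition had 1 library. Depth limits the 2 RNAs nearly absent in DMSO, whose folds rest on 29 and 109 UMIs, and on far fewer after thinning.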
